A study of Mus musculus with 8 samples.

Results

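The 9 genes described here, tied to glucose use and low oxygen, were followed across the embryonic mouse gonad. They are the glucose transporter gene Slc2a1, the glycolytic enzyme genes Hk2, Aldoa, Pgk1, Pkm and Ldha, the pyruvate dehydrogenase kinase gene Pdk1, and the secreted factor genes Vegfa and Adm. These were taken as a named list, with every probe set annotated to one of them, which gave 12 probe sets of the 12488 on the array. Of these, 11 passed the filter on low values, out of 8452 fitted, and all 9 genes were represented among 6353 fitted genes. The second Hk2 probe set lay between 3.99 and 4.40 on the log2 scale, below the detection floor on all 8 arrays, and was not fitted.

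The series comprises 8 arrays of the Affymetrix MG_U74Av2 type, with 1 per genotype, sex and stage. The groups were Wnt4 knock-out (KO) males and KO females at E14.5 and at E12.5, set against wild-type (WT) males and WT females of the same stages, where E12.5 and E14.5 are days of embryonic development. The Wnt4 protein is a ligand on which differentiation of the fetal ovary depends. Gonads were dissected and frozen until PCR had given the genotype, and total RNA was labelled as biotinylated cRNA. The sources used here give neither the strain nor the mutant allele, nor whether an array holds gonads of 1 embryo or of several. No group has a replicate array. Standard errors and p-values below come from a limma fit over all 8 arrays. Its 2 residual degrees of freedom are the part of each sex's genotype difference that varies between stages. The errors and p-values therefore rest on that variation, moderated by limma over all probe sets, and not on a spread between replicate arrays.

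Cells take up glucose through transporters such as the Slc2a1 product, trap it with hexokinase, and split it in glycolysis to pyruvate, which is either reduced to lactate or sent to the mitochondria. When oxygen is scarce, the transcription factor HIF-1, a dimer of HIF-1α and ARNT, raises transcription of genes for these steps, of Pdk1, which closes the mitochondrial route, and of Vegfa and Adm, which act on blood vessels. Fetal gonads also change their vessels and their nutrient use while Sertoli cells, Leydig cells and germ cells differentiate.

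HIF-1 binds short elements with the core ACGTG or GCGTG, and the RefSeq promoter windows of the 9 genes (250 bases before to 50 after an annotated start, GRCm38.p6) were searched for both cores on both strands. All 9 genes matched, with 15 windows between them. The 5 windows below are printed because they belong to the gene with the largest fall with stage in males (Slc2a1), the gene below WT in all 4 pairs of arrays (Hk2), the window with the most cores (Ldha), the gene furthest below WT in 1 pair (Pdk1) and the gene that moved the opposite way in males (Adm). Each is written 5′ to 3′ on the gene's strand, with the cores in capitals; a core on the other strand reads CACGT or CACGC.

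Slc2a1, chr4:119108495-119108794, plus strand: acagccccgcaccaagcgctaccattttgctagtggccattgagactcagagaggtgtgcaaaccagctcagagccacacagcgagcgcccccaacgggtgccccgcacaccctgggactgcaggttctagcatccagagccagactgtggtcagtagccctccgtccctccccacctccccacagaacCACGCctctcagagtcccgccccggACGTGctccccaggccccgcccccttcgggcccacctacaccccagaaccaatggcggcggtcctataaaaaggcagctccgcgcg

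Hk2, chr6:82774405-82774704, minus strand: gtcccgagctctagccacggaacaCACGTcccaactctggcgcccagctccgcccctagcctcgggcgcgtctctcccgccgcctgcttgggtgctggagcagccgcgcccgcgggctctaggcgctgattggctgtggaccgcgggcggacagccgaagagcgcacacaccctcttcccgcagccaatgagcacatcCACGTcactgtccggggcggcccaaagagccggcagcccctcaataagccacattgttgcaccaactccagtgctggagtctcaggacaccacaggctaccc

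Ldha, chr7:46845554-46845853, plus strand: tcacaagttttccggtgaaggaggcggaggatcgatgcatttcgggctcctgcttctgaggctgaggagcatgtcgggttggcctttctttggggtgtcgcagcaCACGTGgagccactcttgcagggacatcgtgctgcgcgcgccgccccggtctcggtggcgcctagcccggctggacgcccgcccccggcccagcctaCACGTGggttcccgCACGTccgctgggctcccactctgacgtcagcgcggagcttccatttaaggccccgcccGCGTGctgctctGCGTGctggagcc

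Pdk1, chr2:71872974-71873273, plus strand: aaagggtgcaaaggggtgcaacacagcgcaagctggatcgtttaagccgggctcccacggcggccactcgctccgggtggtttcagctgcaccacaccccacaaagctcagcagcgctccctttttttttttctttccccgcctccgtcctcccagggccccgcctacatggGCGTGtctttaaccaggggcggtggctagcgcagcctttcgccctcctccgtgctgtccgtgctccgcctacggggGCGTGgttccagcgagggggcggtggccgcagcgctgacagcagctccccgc

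Adm, chr7:110627407-110627706, plus strand: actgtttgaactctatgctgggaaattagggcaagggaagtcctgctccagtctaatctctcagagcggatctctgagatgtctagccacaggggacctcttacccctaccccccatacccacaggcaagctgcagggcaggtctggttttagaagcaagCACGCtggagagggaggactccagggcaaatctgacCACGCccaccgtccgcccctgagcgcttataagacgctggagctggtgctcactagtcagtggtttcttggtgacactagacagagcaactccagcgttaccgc

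At least 1 core was found in 11 of the 15 windows, against 43.8% of 32851 windows of the same length over all genes. The core ACGTG occurred in 8 of 15 windows and in 19.6% of all windows, and GCGTG in 6 of 15 and in 32.4%. A pair of Aldoa windows overlaps, and 1 ACGTG site counts in both. The Ldha window printed above held 7 cores, 5 of them ACGTG, and 4 of these 5 come from 2 copies of the palindrome CACGTG, which reads as ACGTG on both strands. That palindrome was in 1 of the 15 windows and in 7.15% of all windows. The Hk2, Pgk1 and Adm windows each held 2 cores, whereas the window at the upstream Vegfa start held none and the 2 Vegfa cores lay at an annotated start within the gene. A match is a description of the letters only. The map of the cores shows their distance from each start.

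**Figure D1:**
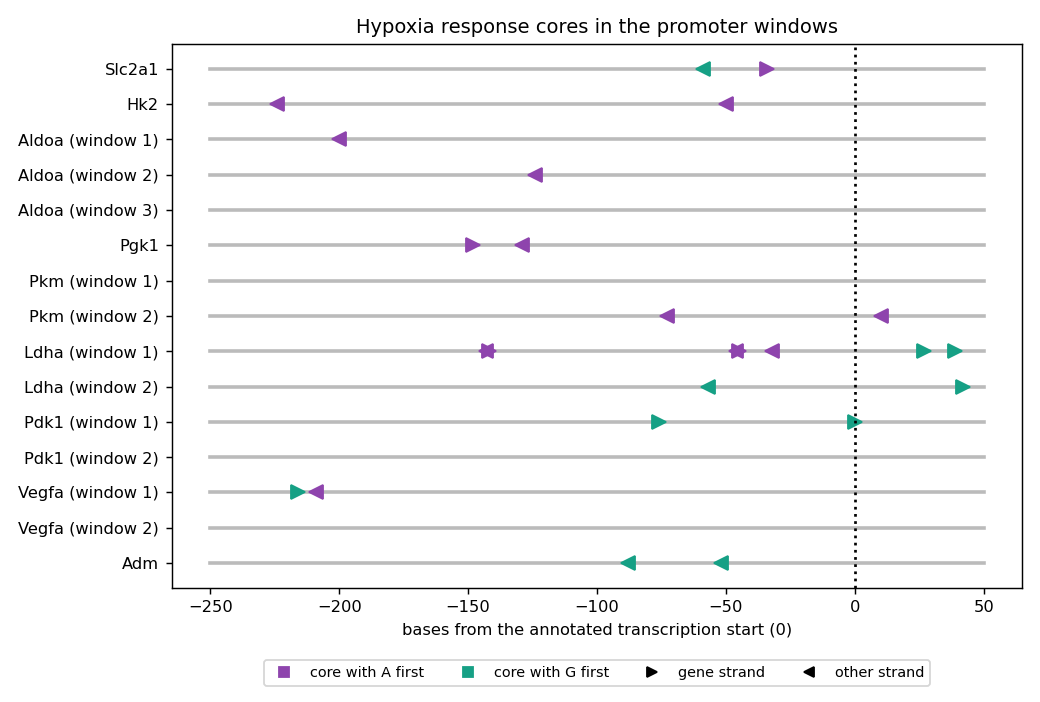
Positions of the HIF-1 core sequences in the 15 RefSeq promoter windows, in bases from the annotated start; purple marks the core that begins with A, green the core that begins with G, and the arrowhead the strand. Cores appear in 11 of the windows, most densely in the first Ldha window with 7.

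Arrays were shifted to 1 common median, and values below a floor of 6.99 (the 40th percentile of all centred log2 values) were set to it. The targeted gene, Wnt4, had centred log2 signals of 8.32 and 8.59 in KO females at E14.5 and E12.5, against 9.45 and 10.19 in WT females; in males it had 9.19 and 8.34 in KO, against 9.42 and 9.26 in WT. The 2 E14.5 male arrays stood apart: their signals correlated at 0.996 with each other but at 0.884 to 0.908 with the other 6 arrays, which correlated at 0.979 to 0.997 among themselves. The WT female E14.5 array carried some transcripts that go against its label. The Y-linked gene Eif2s3y was at 7.63 on it, where the other female arrays had 4.86 to 6.04 and the males 6.91 to 8.12. The Leydig cell genes Cyp17a1 and Cyp11a1 were at 10.36 and 9.42 on it, against 8.13 and 7.87 in KO females of that stage. Xist was at 7.10 on it, where the other females had 7.69 to 8.13 and the males 4.07 to 4.79. The meiosis gene Stra8 was at 8.74, where the E14.5 KO female had 9.39. Among the males, the E14.5 KO array had Stra8 at 7.44 and the others at 5.05 to 5.70. Xist and Stra8 on the WT female E14.5 array were thus on the side of its label. The gap between 3′ and 5′ actin control probe sets, a sign of RNA quality, was 0.48 to 0.76 log2 units on the female arrays and 0.96 to 1.37 on the male arrays. The mean of 9 spike-in probe sets, which read added control transcripts, was 8.83 to 9.05 on the female arrays and 9.48 to 10.09 on the male arrays.

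Levels of the 9 genes ranged widely and cannot be set against each other, because each probe set binds with its own strength. Of the 9 genes, 7 were above the floor on all 8 arrays, Vegfa on 6 and Adm on 3. The plot of levels gives every array for the probe set with the highest mean of each gene.

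**Figure D2:**
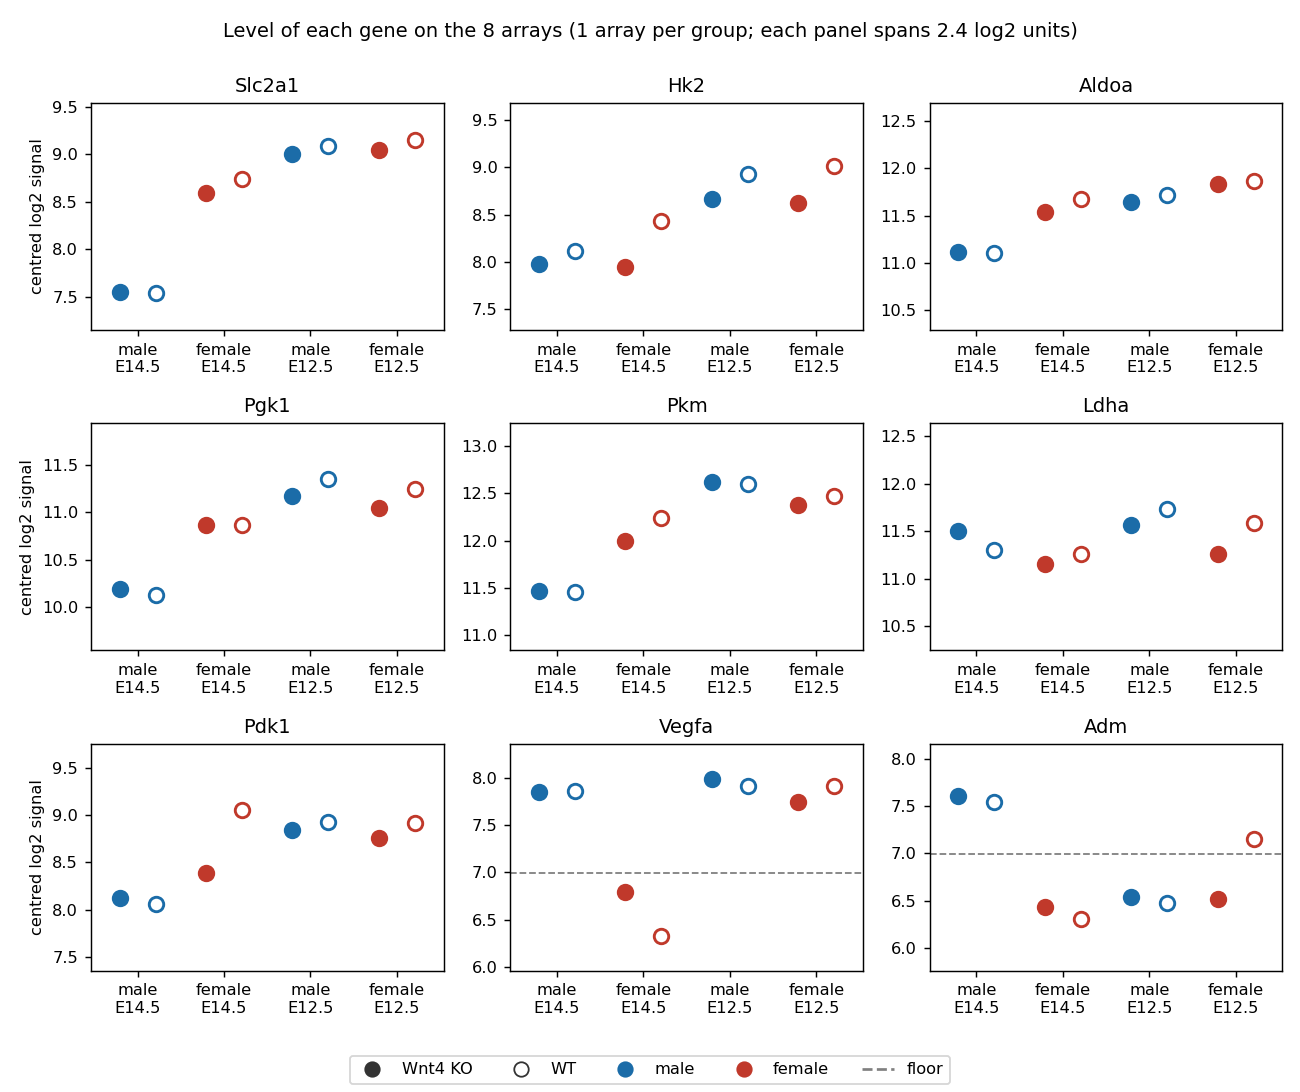
Centred log2 signal of the 9 genes on the 8 arrays (filled points KO, open points WT, blue male, red female); each panel spans the same height in log2 units, and the dashed line is the floor at 6.99. The E14.5 male arrays sit lowest for Slc2a1, Aldoa, Pgk1, Pkm and Pdk1 and highest for Adm.

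The first comparison asked whether gonads without Wnt4 express the 9 genes at other levels. In females none passed the test, although all 9 fitted differences were below 0, with a median of -0.12 on the log2 scale against -0.03 over the 6353 fitted genes, of which 60% were negative. The hexokinase gene Hk2 had the largest one, -0.44 ± 0.07 (SE; adjusted p = 0.433), which is 0.737 of the WT level. Limma called 0 of the 9 genes and 0% of the 8452 probe sets at an adjusted p of 0.05. At an unadjusted p of 0.05, Hk2, Pdk1 and Pkm passed, against 11.4% of all probe sets (962).

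Hk2, whose product traps glucose in the cell, had centred log2 signals of 7.95 and 8.62 in KO females at E14.5 and E12.5, against 8.43 and 9.01 in WT females. In KO males it had 7.98 and 8.67, against 8.12 and 8.93 in WT males. Hk2 was thus below its WT array in all 4 pairs, by 0.14 to 0.48, and the KO and WT arrays did not overlap within a stage. Over all fitted genes, 56.6% were below WT in the E12.5 female pair and 56.5% in the E14.5 female pair. In the male pairs it was 35.3% at E12.5 and 43.7% at E14.5. The share of genes below WT in all 4 pairs was not counted. Over both sexes the Hk2 difference was -0.32 ± 0.05, with an unadjusted p of 0.00152 and an adjusted p of 0.618. In that comparison 489 probe sets (5.79%) had an unadjusted p under 0.05 and limma called 0. In males alone the Hk2 difference was -0.20 ± 0.07 (adjusted p = 0.793).

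Pdk1, whose kinase holds pyruvate back from the mitochondria, had 8.39 and 8.76 in KO females at E14.5 and E12.5, against 9.05 and 8.92 in WT females. Its fitted difference in females was -0.41 ± 0.13 (adjusted p = 0.436). Most of it came from E14.5, where the pair differed by -0.66, against -0.16 at E12.5. The E14.5 pair holds the WT female array with transcripts that go against its label, and Pdk1 at 9.05 was highest there of all 8 arrays. In males Pdk1 had 8.12 and 8.84 in KO, against 8.06 and 8.93 in WT, so the pairs differed in sign.

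Pkm, which makes the last enzyme on the way to pyruvate, had 12 and 12.38 in KO females at E14.5 and E12.5, against 12.24 and 12.47 in WT females (-0.17 ± 0.06, adjusted p = 0.436). The second Pkm probe set gave -0.02 ± 0.06 (adjusted p = 0.934). In males the brighter Pkm probe set was at 11.47 and 12.62 in KO, against 11.46 and 12.60 in WT. Ldha, which turns pyruvate to lactate, had 11.15 and 11.26 in KO females, against 11.26 and 11.59 in WT females (-0.22 ± 0.11, adjusted p = 0.479). In males Ldha had 11.50 and 11.57 in KO, against 11.30 and 11.73 in WT, above WT at E14.5 and below it at E12.5.

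The other genes differed less in females: Slc2a1 by -0.12 ± 0.06, Pgk1 by -0.10 ± 0.09, Aldoa by -0.09 ± 0.06, and Vegfa and Adm by -0.08 each, with adjusted p between 0.489 and 0.641. The Vegfa value depends on the floor, since both E14.5 female arrays were under it; with no floor it turned to 0.15. The Pgk1 pairs were -0.21 at E12.5 and 0.01 at E14.5. The E12.5 pair, where the WT array has no sign of the other sex, gave 9 of 9 genes below WT with a median of -0.16, where 56.6% of all genes were below; at E14.5 it was 6 of 9, with 1 above and 2 at no difference, a median of -0.13 and 56.5% of all genes below.

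Marker lists of cell types differed unevenly in the female pairs, and limma called no marker. The summed linear signal of the Leydig list (9 of 10 genes fitted) was 4493 and 4397 in KO females at E14.5 and E12.5, against 7661 and 4026 in WT females. The pregranulosa list (8 of 11 genes, Wnt4 among them) summed to 3516 and 3291 in KO, against 5353 and 6456 in WT, while the endothelial list (10 of 13) summed to 5143 and 4823, against 4865 and 4961. The Sertoli list (11 of 14) summed to 3959 and 4579, against 5641 and 4552, and the macrophage list (7 of 11) to 2343 and 2014, against 2121 and 1966. The E14.5 WT sums, such as 7661 for Leydig and 5641 for Sertoli, are from the array with transcripts that go against its label. The germ cell list (8 of 12) was above WT in both pairs, with 6061 and 4660, against 5539 and 3787. Some listed markers lay under the floor, such as Stra8 at 5.22 in KO and 5.62 in WT females at E12.5. What part these cell types had in the Hk2, Pdk1 and Pkm values was not tested. In whole gonads, fewer cells of a type and less RNA per cell cannot be told apart.

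In males the 9 genes were split, with 5 fitted differences below 0 and 4 above, a median of -0.02 against 0.01 over all fitted genes, and none past the test. Adjusted p ran from 0.793 to 0.993. Only Hk2 had an unadjusted p under 0.05, against 405 probe sets (4.79%), and limma called 0% of probe sets. The E14.5 pair had 7 genes above WT and 2 below with a median of 0.01, where 46.1% of all fitted genes were above and 43.7% below. The E12.5 pair had 6 below, 2 above and 1 with both arrays at the floor, with a median of -0.08. In that pair 35.3% of all genes were below and 55.9% above.

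The KO difference in males minus that in females was above 0 for all 9 genes, with a median of 0.11 against 0.06 over all fitted genes, of which 36.4% were negative. The largest were Pdk1 at 0.39 ± 0.19 (adjusted p = 0.453), Hk2 at 0.24 ± 0.10 (adjusted p = 0.438), Ldha at 0.24 ± 0.15 (adjusted p = 0.514) and Pkm at 0.18 ± 0.08 (adjusted p = 0.451). None of the 9 passed, even at an unadjusted p of 0.05, where 971 probe sets (11.5%) did and limma called 0 after adjustment. A difference between the sexes in the response of these genes to Wnt4 loss was therefore not shown.

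**Figure D3:**
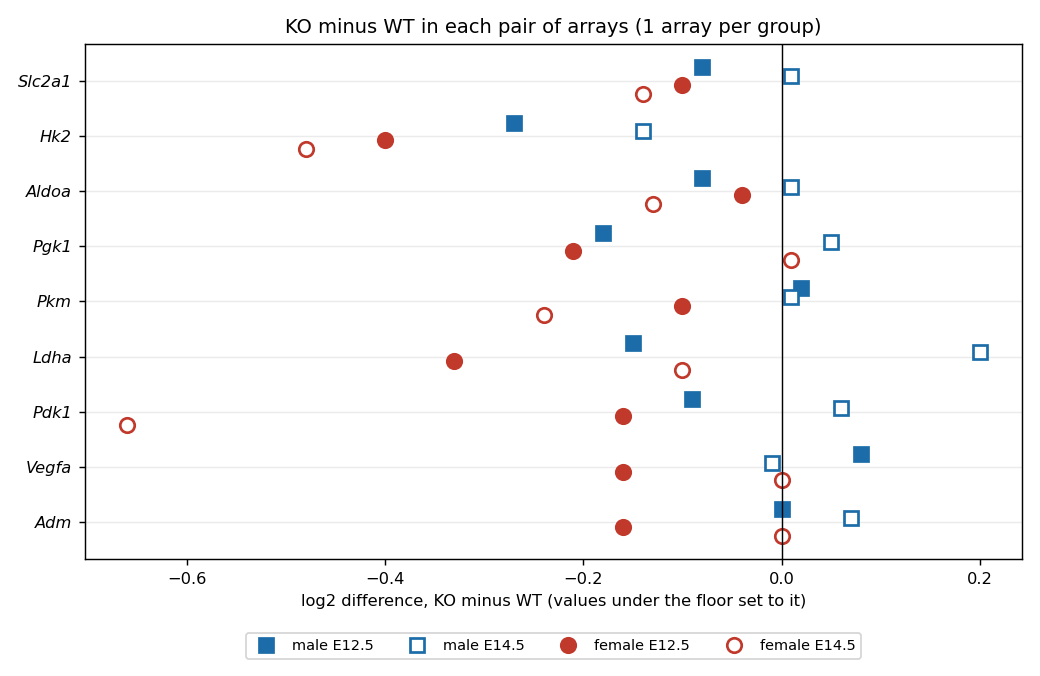
Difference between KO and WT arrays (log2) for each gene in the 4 pairs of arrays, 1 pair per sex and stage; blue squares are males and red circles females, filled for E12.5 and open for E14.5. Hk2 is below 0 in all 4 pairs, and the E14.5 male pair gathers near 0 with Ldha at 0.20.

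The other pathway genes were counted by 8 lists. In KO females limma called none of them. Of 15 fitted other glycolysis genes 13 were below WT, with a median of -0.09, and Bpgm (-0.32 ± 0.06), which makes the oxygen-affinity regulator 2,3-bisphosphoglycerate in red cells, was the lowest of those named by rule; Ldhb (-0.26 ± 0.07) and Pgam1 (-0.23 ± 0.06) had an adjusted p of 0.433 like Bpgm. Of 22 pyruvate and citric acid cycle genes 19 were below WT (median -0.10), and of 5 pentose phosphate genes all 5 (median -0.10). In males the same 2 lists had 17 of 22 above WT (median 0.07) and 5 of 5 (median 0.10), again with none called. Among 20 other hypoxia-induced genes 15 were below WT in females, with a median of -0.03, equal to that of all fitted genes. The red cell list summed to 26265 and 34320 in KO females at E14.5 and E12.5, against 32074 and 35551 in WT females; its part in the Bpgm value was not tested.

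The second comparison was between stages. In males most calls among the 9 genes were downward with stage. At E14.5, Slc2a1, Pkm, Pgk1, Pdk1, Hk2 and Aldoa were lower, Adm was higher, and Ldha and Vegfa did not pass the test. The 6 lower genes compare with 39.9% of all probe sets called lower, and the 1 higher gene with 38%, so 7 of 9 called stands beside 77.8% of probe sets called in either direction. The count is close to that background. The median of the 9 fitted differences was -0.75, against -0.04 over all fitted genes.

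Slc2a1, the gene of a glucose transporter found in most tissues, had 7.55 in KO males and 7.54 in WT males at E14.5, against 9.0 and 9.09 at E12.5. Its fitted difference was -1.50 ± 0.06 (adjusted p = 7.56e-05), or 0.354 of the E12.5 level. Both E14.5 arrays lay more than 2-fold below both E12.5 arrays. Pkm had 11.47 in KO and 11.46 in WT at E14.5, against 12.62 and 12.60 at E12.5 (-1.14 ± 0.06, adjusted p = 9.66e-05). The second Pkm probe set fell less (-0.55 ± 0.06, adjusted p = 0.00103). Pgk1, which makes the first ATP of glycolysis, had 10.19 in KO and 10.13 in WT at E14.5, against 11.17 and 11.35 (-1.10 ± 0.09, adjusted p = 0.000285). Its fall was 0.98 in the KO pair and 1.22 in the WT pair, so by each gene's brightest probe set 3 genes passed 2-fold in WT males and 2 in KO males, where 13.7% of probe sets did in each genotype.

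Hk2 had 7.98 in KO and 8.12 in WT males at E14.5, against 8.67 and 8.93 at E12.5 (-0.75 ± 0.07, adjusted p = 0.000465). Pdk1 had 8.12 in KO and 8.06 in WT at E14.5, against 8.84 and 8.93 (-0.79 ± 0.13, adjusted p = 0.00388). Aldoa, the aldolase gene that splits the sugar into triose phosphates, had 11.12 in KO and 11.11 in WT at E14.5, against 11.64 and 11.72 (-0.56 ± 0.06, adjusted p = 0.000574). Its second probe set had 9.27 in KO and 9.09 in WT, against 10.22 and 10.41, a larger difference (-1.13 ± 0.11, adjusted p = 0.000508). For each of these genes, the 2 E14.5 arrays were below both E12.5 arrays. Of all fitted genes, 52.3% were lower at E14.5 in the KO male pair and 51% in the WT male pair. How many genes had this order was not counted.

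Ldha had 11.50 in KO and 11.30 in WT males at E14.5, against 11.57 and 11.73 at E12.5, and the fitted difference of -0.25 ± 0.11 did not pass (adjusted p = 0.0906). Vegfa, the main growth factor of blood vessels, had 7.85 in KO and 7.86 in WT at E14.5, against 7.99 and 7.91 (-0.10 ± 0.06, adjusted p = 0.214). Adm, which encodes the vessel-dilating peptide adrenomedullin, was above the floor on the E14.5 but not the E12.5 male arrays, with 7.61 in KO and 7.54 in WT, while the E12.5 values of 6.54 and 6.48 lay under it. Its pairs were thus at least 0.62 log2 units higher in KO and at least 0.55 higher in WT, and the fitted value at the floor was 0.59 ± 0.05 (adjusted p = 0.000351). With values as deposited, where the median of all probe sets fell by 0.69, Adm was at 0.15 and no longer passed (adjusted p = 0.138), while Vegfa (-0.88, adjusted p = 5.01e-05) and Ldha (-1.02, adjusted p = 0.000171) passed as lower.

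In females at E14.5, Vegfa, Hk2, Slc2a1, Pkm and Aldoa were lower and none was higher, 5 of 9 genes where 14.6% of probe sets were called lower, 8.41% higher and 23.1% in either direction. All 9 fitted differences were negative, with a median of -0.28 against -0.03 over all fitted genes. These 5 calls needed every array: with any 1 of the 8 arrays left out limma called 0 of them and 0% of probe sets, with adjusted p from 0.0642 to 0.304 and every difference still below 0, and the same happened without both E14.5 male arrays. The germ cell list (8 of 12 genes fitted) summed to 6061 in KO and 5539 in WT females at E14.5, against 4660 and 3787 at E12.5, with 4 genes called higher and 1 lower. The Leydig list summed to 4493 and 7661, against 4397 and 4026. Its WT value of 7661 is from the array with transcripts that go against its label. The red cell list (9 of 12) summed to 26265 and 32074, against 34320 and 35551, but its genes moved both ways. The globin gene Hba-x, for instance, was lower (-1.65 ± 0.21), whereas the globin gene Hba-a1 was higher (0.37 ± 0.07). The cell cycle list (12 of 15) summed to 12712 and 12989, against 13956 and 14311. The part of these cells in the female stage values was not tested.

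Vegfa had 6.79 in KO females and 6.33 in WT females at E14.5, both under the floor, against 7.74 and 7.91 at E12.5. It was therefore at least 0.75 log2 units lower in KO and at least 0.92 lower in WT, with a fitted value of -0.84 ± 0.06 (adjusted p = 0.00883). Hk2 had 7.95 in KO and 8.43 in WT at E14.5, against 8.62 and 9.01 (-0.62 ± 0.07, adjusted p = 0.0115, 0.649 of the E12.5 level). Slc2a1 had 8.59 in KO and 8.74 in WT at E14.5, against 9.05 and 9.15 (-0.43 ± 0.06, adjusted p = 0.0167). In each of these genes both E14.5 females lay below both E12.5 females. Of all fitted genes, 55.6% were lower at E14.5 in the KO female pair and 51.6% in the WT female pair. How many genes had this order was not counted.

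Pkm had 12 in KO and 12.24 in WT females at E14.5, against 12.38 and 12.47 (-0.30 ± 0.06, adjusted p = 0.0297). Its second probe set differed in sign, at 0.22 ± 0.06 (adjusted p = 0.0726), so the Pkm call rests on the brighter probe set alone. With the mean of both sets the Pkm value was -0.04 (adjusted p = 0.655). Aldoa had 11.54 in KO and 11.67 in WT at E14.5, against 11.83 and 11.87 (-0.25 ± 0.06, adjusted p = 0.0399). After quantile normalization it no longer passed (adjusted p = 0.0622). Both probe sets of Aldoa and both of Pkm are of kinds that can bind several related transcripts, as is that of Hif1a.

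Pgk1 had 10.87 in KO and 10.86 in WT females at E14.5, against 11.04 and 11.24 (-0.28 ± 0.09, adjusted p = 0.0842). Ldha had 11.15 in KO and 11.26 in WT, against 11.26 and 11.59 (-0.22 ± 0.11, adjusted p = 0.202). Pdk1 had 8.39 in KO and 9.05 in WT, against 8.76 and 8.92, so its pairs differed in sign (-0.37 in KO, 0.13 in WT) and the fit gave -0.12 ± 0.13 (adjusted p = 0.577). The WT value at E14.5 is from the array with transcripts that go against its label. Adm was above the floor on 1 female array, WT at E12.5 with 7.15, with its other female values at 6.43 in KO and 6.31 in WT at E14.5 and 6.52 in KO at E12.5. With values as deposited Pgk1, Ldha and Pdk1 passed as lower too.

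**Figure D4:**
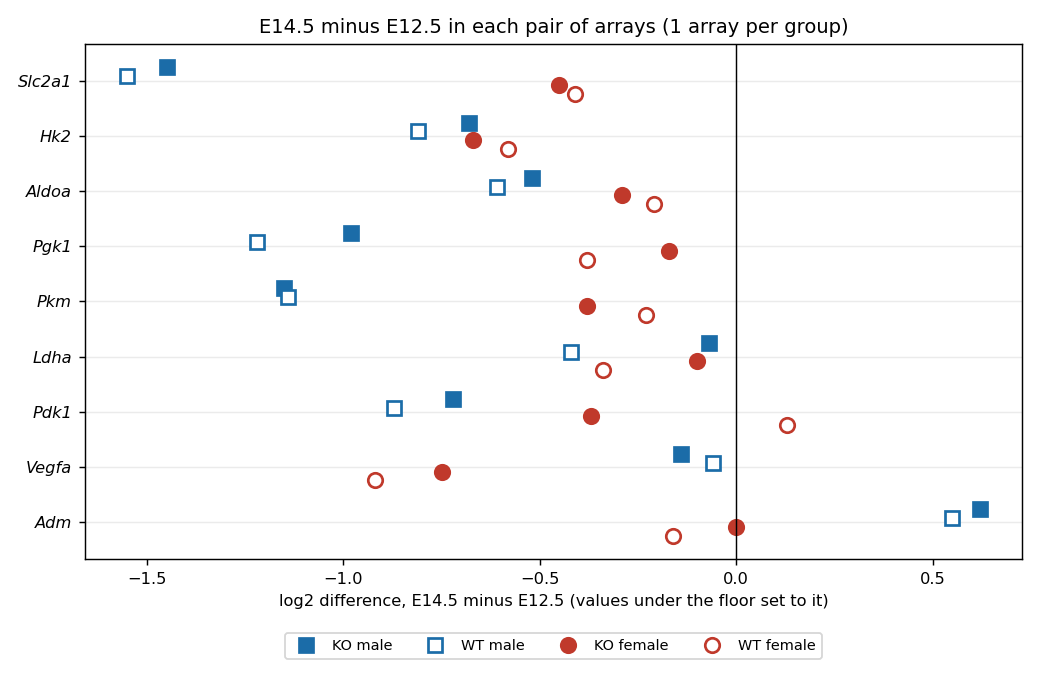
Difference between E14.5 and E12.5 arrays (log2) for each gene in KO and WT males (blue squares) and females (red circles), filled for KO and open for WT. Slc2a1, Pgk1 and Pkm lie between -0.98 and -1.55 in males and between -0.17 and -0.45 in females, while Vegfa lies between -0.75 and -0.92 in females and between -0.06 and -0.14 in males.

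The stage difference in males minus that in females tests whether the sexes diverged. It was negative for Slc2a1 (-1.07 ± 0.09, adjusted p = 0.000702), Pkm (-0.84 ± 0.08, adjusted p = 0.00106), Pgk1 (-0.82 ± 0.12, adjusted p = 0.00369), Pdk1 (-0.68 ± 0.19, adjusted p = 0.0275) and Aldoa (-0.31 ± 0.08, adjusted p = 0.0195). It was positive for Vegfa (0.74 ± 0.09, adjusted p = 0.00199) and Adm (0.67 ± 0.07, adjusted p = 0.00126), both of which depend on the floor. With values as deposited Vegfa was at 0.16 and no longer passed (adjusted p = 0.172), and Adm was at 0.32 (adjusted p = 0.0492). Hk2 (-0.12 ± 0.10) and Ldha (-0.03 ± 0.15) did not pass, but as deposited both were called, at -0.65 (adjusted p = 0.00189) and -0.55 (adjusted p = 0.0164). Aldoa lost its call after quantile normalization (-0.07, adjusted p = 0.441), and Pdk1 with no filter on low values (adjusted p = 0.128). The second Aldoa probe set gave -0.85 ± 0.15 (adjusted p = 0.00653). The 5 negative calls stand beside 33.8% of probe sets and the 2 positive ones beside 35.2%, or 69% in either direction. Leaving out the WT male E12.5 array left 3 of the 7 calls, and leaving out the KO male E12.5 array left 4.

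Both E14.5 male arrays are the ones that stood apart, and what part that has in the male stage values was not tested. The glyceraldehyde phosphate dehydrogenase gene Gapdh, read by control probe sets that were not fitted, had 3′ values of 13.25 in KO and 13.20 in WT males at E14.5, against 13.31 and 13.37 at E12.5. The cell cycle list (12 of 15 genes fitted) summed to 10297 in KO and 9919 in WT males at E14.5, against 15158 and 15084. The red cell list (9 of 12) summed to 33063 and 27664, against 53672 and 55294, but its genes did not move together. The globin gene Hbb-y had 12.70 in KO and 12.03 in WT at E14.5, against 14.22 and 14.23. Another globin gene, Hba-a1, had 14.32 and 14.20, against 14.21 and 14.18. The germ cell list (8 of 12) summed to 3036 and 3043, against 4057 and 4191. The Leydig list moved the other way, with 9395 in KO and 13410 in WT at E14.5, against 5936 and 5053. Some listed markers lay under the floor, such as the Leydig list gene Hsd3b6 at 5.04 in KO and 4.89 in WT males at E14.5. What part these cells had in the results was not tested.

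Within glycolysis the other genes did not all follow. In males 7 of 15 fitted other glycolysis genes were lower at E14.5 and 6 higher, with a median of -0.04, equal to that of all fitted genes. The stage counts of all lists, here and below, stand beside 39.9% of probe sets called lower and 38% higher in males. For females these shares were 14.6% lower and 8.41% higher. Bpgm fell by 1.80 ± 0.06 (adjusted p = 6.56e-05), Ldhb by 1.08 ± 0.07 (adjusted p = 0.000173), Pgam1 by 0.31 ± 0.06 (adjusted p = 0.00567) and Pfkm by 0.23 ± 0.07 (adjusted p = 0.0274). Chosen after their values were seen, the glucose transporter genes Slc2a3 (1.06 ± 0.05, adjusted p = 9.62e-05) and Slc2a4 (0.70 ± 0.06, adjusted p = 0.000349) were higher where Slc2a1 was lower. Values of the list genes are given only after centring. As deposited, the median of all probe sets fell by 0.69 with stage in males, so a rise near that size, such as that of Slc2a4, depends on the centring. Of 22 pyruvate and citric acid cycle genes 17 were lower and 5 higher, with a median of -0.65; the pyruvate dehydrogenase subunit gene Pdha1 differed by -1.24 ± 0.06 (adjusted p = 7.82e-05) and the pyruvate carboxylase gene Pcx by 1.32 ± 0.06 (adjusted p = 8.19e-05). In females 5 of 15 glycolysis genes were lower and none higher (median -0.13), among them Ldhb (-0.51 ± 0.07, adjusted p = 0.0159) and Pgam1 (-0.39 ± 0.06, adjusted p = 0.0167).

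The oxygen-sensing list, with 10 fitted genes, had 6 lower and 3 higher at E14.5 in males (median -0.41) and 1 lower in females. Hif1a, which encodes the oxygen-regulated HIF-1 subunit, had 10.17 in KO and 10.14 in WT males at E14.5, against 11.95 and 11.86 at E12.5 (-1.75 ± 0.05, adjusted p = 6.56e-05). In females it had 11.41 in KO and 11.49 in WT at E14.5, against 11.71 and 11.73 (-0.27 ± 0.05, adjusted p = 0.0288). The HIF-1α protein is controlled mainly by its breakdown, which arrays do not read. Of 20 other hypoxia-induced genes, 8 were lower and 5 higher in males (median -0.07), and 2 lower and 2 higher in females, beside 14.6% and 8.41% of probe sets. In females these included the collagen cross-linking gene Lox (1.14 ± 0.09, adjusted p = 0.00869) and Ero1a (-0.35 ± 0.06, adjusted p = 0.0191), a gene of protein folding.

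For the vessel signals, 4 of 8 fitted other VEGF family and receptor genes were higher and 3 lower in males at E14.5, and 1 was lower in females. Vegfb (1.10 ± 0.05, adjusted p = 8.27e-05) and the receptor gene Flt1 (0.84 ± 0.07, adjusted p = 0.000341) were higher in males, while Vegfa itself did not pass there. Both rises are centred values and stand beside a fall of 0.69 in the deposited median. The lymphatic receptor gene Flt4 was lower in females (-0.39 ± 0.07, adjusted p = 0.0256). The endothelial list summed to 4688 in KO and 4440 in WT males at E14.5, against 5765 and 5155 at E12.5, and to 5143 and 4865 in females, against 4823 and 4961. Ramp1, which encodes an accessory protein of calcitonin-family receptors, was higher at E14.5 in females (0.85 ± 0.11, adjusted p = 0.0133) and in males (0.54 ± 0.11, adjusted p = 0.00703). The male Ramp1 rise was smaller than the fall of 0.69 in the deposited median, so it depends on the centring.

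**Figure D5:**
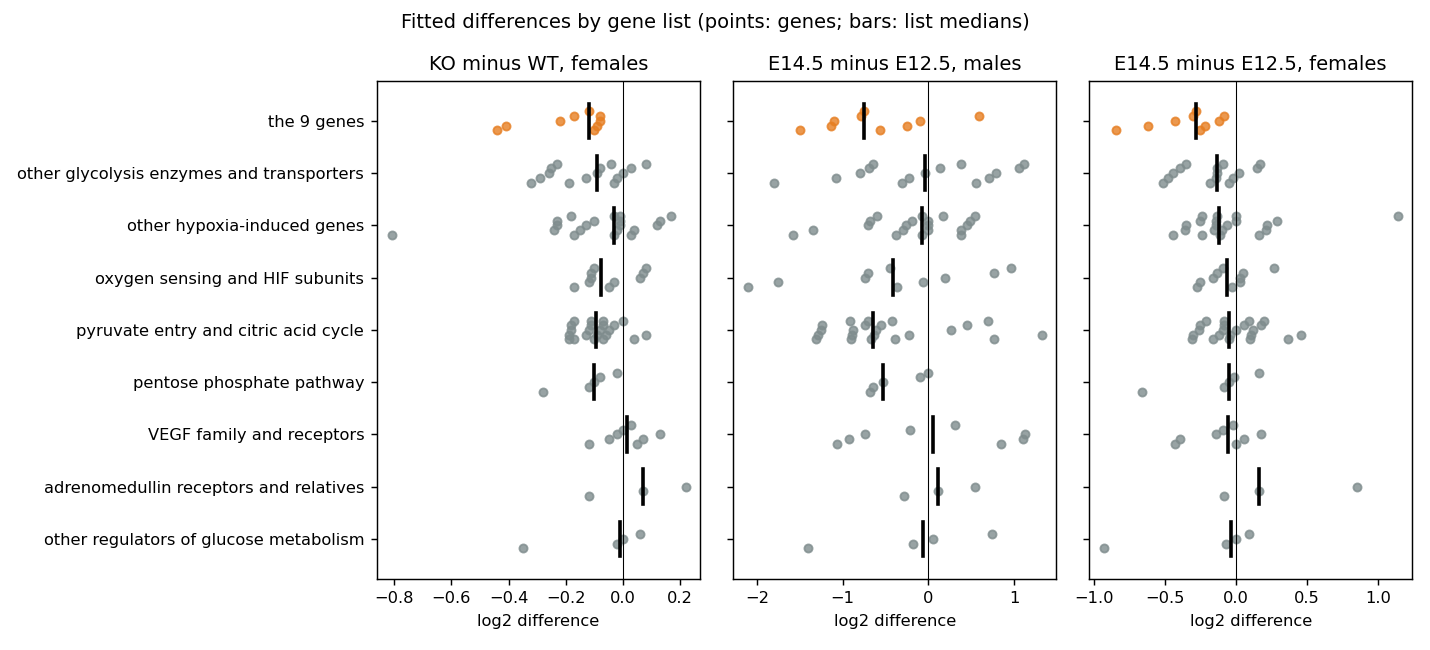
Fitted log2 differences of the 9 genes (orange) and of 8 lists of related genes (grey), with list medians as black bars, for KO minus WT in females, E14.5 minus E12.5 in males and E14.5 minus E12.5 in females. In males the 9 genes have a median of -0.75 and the other glycolysis genes one of -0.04, while the citric acid cycle list has one of -0.65.

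The third comparison was between the sexes. At E12.5 limma called none of the 9 genes, where 16.3% of probe sets were called. At an unadjusted p of 0.05 it was 2 of the 9 genes, Pkm (0.19 ± 0.06, adjusted p = 0.094) and Aldoa (-0.17 ± 0.06, adjusted p = 0.0948), and 3089 probe sets (36.5%). The other genes lay between -0.08 for Adm and 0.22 for Ldha. The calls depend on the scaling: with values as deposited Pkm, Vegfa and Ldha were called higher in males, and after quantile normalization Aldoa was called lower. In the lists, Bpgm was higher in males at E12.5 (0.48 ± 0.06, adjusted p = 0.0225), as were the citrate synthase gene Cs (0.43 ± 0.05, adjusted p = 0.0221) and Ramp3 (0.46 ± 0.08, adjusted p = 0.0305), whereas Pfkm was lower (-0.41 ± 0.07, adjusted p = 0.03). The red cell list was also higher in males at E12.5, with 53672 in KO and 55294 in WT, against 34320 and 35551 in females, and its part in the Bpgm value was not tested.

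At E14.5, 5 of the 9 genes were lower in males, where 38% of probe sets were called lower, and 2 were higher, where 39.5% were called higher, with 77.5% called in either direction. Slc2a1 was lower in both genotypes, with 7.55 in KO and 7.54 in WT males, against 8.59 and 8.74 in females (-1.12 ± 0.06, adjusted p = 0.000126). Pgk1 (-0.70 ± 0.09, adjusted p = 0.00135), Pkm (-0.65 ± 0.06, adjusted p = 0.000452), Pdk1 (-0.64 ± 0.13, adjusted p = 0.00891) and Aldoa (-0.49 ± 0.06, adjusted p = 0.000971) were lower too. The Pdk1 pairs were -0.28 in KO and -1 in WT, where the WT female array is the one with transcripts that go against its label. The second Aldoa probe set gave -1.18 ± 0.11 (adjusted p = 0.000471), and Pdk1 lost its call with no filter on low values (adjusted p = 0.0636). Vegfa was at least 0.86 log2 units higher in KO males and at least 0.87 higher in WT males than in females (adjusted p = 0.000246). Adm was at least 0.62 higher in KO and at least 0.55 higher in WT (adjusted p = 0.00037). With values as deposited the fitted value of Adm was 0.15 and no longer passed (adjusted p = 0.155), while Vegfa still did. Ldha (0.20 ± 0.11, adjusted p = 0.15) and Hk2 (-0.14 ± 0.07, adjusted p = 0.134) did not pass, but Hk2 did as deposited (-0.52, adjusted p = 0.000869) and Ldha after quantile normalization (0.31, adjusted p = 0.042). Slc2a1 reached 2-fold in both pairs, where 10.7% of probe sets did in KO and 14% in WT. This comparison rests on the same E14.5 male arrays as the stage comparison, so their values are not independent of it. Sex also goes with the actin and spike-in control values at both stages, and their part in the sex differences was not tested.

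The genes whose pattern over the 8 arrays was most like the mean of the 9 members' standardised values were Sinhcaf (Pearson r = 0.992), Nkain1 (0.986), Elp3 (0.984), Pfkl (0.983), Cdca7 (0.982) and Slc9a3r1 (0.976), out of 6334 genes. Pfkl, the liver phosphofructokinase gene of glycolysis, had 9.71 and 10.09 in KO females at E14.5 and E12.5, against 9.81 and 10.37 in WT females, and 9.62 and 10.15 in KO males, against 9.45 and 10.31 in WT males. Over the 6 arrays left after setting the E14.5 males aside, the closest genes were Ppp1r7 (0.995), Tmod3 (0.995), St13 (0.993), Adsl (0.989), Tulp2 (0.989) and Igf2r (0.988), out of 6011, and the 2 sets of 6 share no gene. All genes were read on the same few arrays, so these values describe likeness only.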

How the data were processed

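The deposited values are log2 expression values, 1 per probe set and array, made with MAS5 per the submitters' processing notes. The sources used here do not give its version, scaling target or background correction. In the KO male E12.5 column 14 cells held date serial numbers (41278 to 41284) and were set to missing; none belonged to the 9 genes. Arrays were shifted to 1 common median, values under the 40th percentile (6.99) were set to it, and probe sets above it on at least 2 arrays were kept, without the 66 control probe sets. The probe set with the highest mean stood for a gene. Limma 3.58.1 in R 4.3.3 (lmFit, eBayes with trend) fitted sex by genotype plus sex by stage on all 8 arrays, two-sided, with Benjamini-Hochberg adjustment over 8452 probe sets at 0.05. The script was tested on simulated data. The number of arrays limits the precision.

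The 9 genes, the 8 pathway lists and the marker lists were chosen with earlier results of these data known. All probe sets of the 9 genes are named, and up to 4 genes per pathway list, those with the largest moderated statistic in the KO comparison over both sexes, the female stage comparison or the E12.5 sex comparison; the 6 genes most like the members follow the same kind of rule. Alternatives changed the floor, the filter, the scaling, the intensity trend, the probe set rule, the model and the arrays used.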

Additional observations from a re-analysis of the deposited data

Results flagged for a closer look

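The effect of stage differed between males and females by the test of the difference itself for 7 genes. Stage effect in males minus that in females was -1.07 for Slc2a1, -0.84 for Pkm, -0.82 for Pgk1, -0.68 for Pdk1 and -0.31 for Aldoa on the log2 scale, and 0.74 for Vegfa and 0.67 for Adm. Of all probe sets, 69% passed the same test.

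The Pkm difference between KO and WT had one sign in both male pairs (0.02 and 0.01) and the other in both female pairs (-0.10 and -0.24). The difference between the sexes, 0.18 on the log2 scale, did not pass its test (adjusted p = 0.451). The second Pkm probe set did not share the pattern, with -0.10 and 0.04 in the male pairs and 0.03 and -0.08 in the female pairs.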

How the results depend on the processing

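No paired analysis was possible because each group has 1 array and the labels carry no replicate numbers. No setting called any of the 9 genes in the 4 genotype comparisons, and a fit of genotype within each stage called none either (Hk2 -0.33 at E12.5 and -0.31 at E14.5). For stage in females the 5 calls became 8 with values as deposited, 3 with the mean of a gene's probe sets, 3 with plain probe sets alone (no Pkm or Aldoa), and 0 with no filter on low values, with 1 common stage effect, without both E14.5 male arrays and with any array left out (0 to 0). For stage in males and for sex at E14.5 the 7 calls became 0 with 1 common stage effect, where the residual then holds the stage difference between the sexes, and were 6 to 7 with 1 array left out. For stage by sex they were 3 to 6. At E12.5 the sexes gave 3 calls with values as deposited and 1 after quantile normalization.

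Centring matters: as deposited, the median of all probe sets moved by -0.27 with stage in females, -0.69 in males, -0.41 for stage by sex, 0.12 for sex at E12.5 and -0.27 at E14.5. The share of calls that were higher was then 5.24% with stage in females (36.5% centred, 49% quantile normalized), 11.1% in males (48.8%), 18.1% for stage by sex (51%), 85.6% for sex at E12.5 (47.8%) and 27.5% at E14.5 (51%).

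Directions that turned, none of them a call before, were these. With no floor or a floor at the 20th percentile, Vegfa was 0.15 in KO females, 0.09 over both sexes and -0.11 for KO by sex. In KO males Pkm was -0.02 as deposited and -0.01 with quantile normalization or averaged probe sets, and Ldha -0.01 as deposited and quantile normalized and -0.15 without the E14.5 males. For KO by sex Aldoa was -0.02 as deposited and -0.06 quantile normalized, and Pgk1 -0.04, -0.07 and, without the E14.5 males, -0.08. Quantile normalization gave Ldha 0.04 for stage in males and 0.17 for stage by sex, and 1 common stage effect gave Adm 0.25 for stage in females. For sex, as deposited, Hk2 was 0.13 and Slc2a1 0.09 at E12.5 and Ldha -0.19 at E14.5; quantile normalization gave Hk2 0.01 and Pkm -0.03 at E12.5. With 1 common stage effect Pkm was -0.23, Pdk1 -0.30, Pgk1 -0.29 and Adm 0.25 at E12.5. The cause was not tested.

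With 1 array left out, values crossed 0 for Pgk1 in KO females (-0.21 to 0.01), for Pdk1 (-0.09 to 0.06), Aldoa (-0.08 to 0.01), Ldha (-0.15 to 0.20), Pgk1 (-0.18 to 0.05), Slc2a1 (-0.08 to 0.01) and Vegfa (-0.01 to 0.08) in KO males, and for Vegfa (-0.07 to 0.02) and Adm (-0.06 to 0.02) over both sexes. They also did for Pgk1 in KO by sex (-0.08 to 0.15), Pdk1 with stage in females (-0.37 to 0.13), Ldha in stage by sex (-0.20 to 0.15), and Hk2 (-0.08 to 0.05) and Pdk1 (-0.21 to 0.29) for sex at E12.5. Stage by sex has no value with 1 common stage effect, and no male comparison that needs them has one without the E14.5 males.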

Other observations

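Mycn, a growth regulator of progenitor cells and of glucose use, was lower at E14.5 in females (-0.93 ± 0.09, adjusted p = 0.0104) and in males (-1.40 ± 0.09, adjusted p = 0.000159), and lower in males than in females at E12.5 (-0.44 ± 0.09, adjusted p = 0.0422). In KO females its difference was -0.35 ± 0.09 (adjusted p = 0.433). Of the 4 fitted other regulators of glucose metabolism, 2 were lower and 1 higher with stage in males, and 1 lower in females.

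In the pentose phosphate pathway, which branches from glycolysis to make NADPH and ribose, 3 of 5 fitted genes were lower at E14.5 in males (median -0.53) and 1 in females, the transketolase gene Tkt (-0.66 ± 0.12, adjusted p = 0.0263). At E12.5, Taldo1 (-0.29 ± 0.06, adjusted p = 0.0372) and Pgls (-0.34 ± 0.07, adjusted p = 0.039) were lower in males than in females. Igfbp3, a hypoxia-induced gene chosen here after its values were seen, differed by -0.81 ± 0.30 in KO females (adjusted p = 0.436), with -0.62 at E14.5 and -1.0 at E12.5. In males it had 10.16 in KO against 9.87 in WT at E14.5, and 10.88 against 11.85 at E12.5. The fitted male difference was -0.34 ± 0.30 (adjusted p = 0.822).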
